A study of Mus musculus with 14 samples.

Results

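The comparison described here set Klf5CN corneas against WT corneas at postnatal day 11 (PN11), just before the eyelids open, and asked which transcripts depended on Klf5 at that age. It used 6 of the 14 arrays of the series, 3 of PN11 Klf5CN and 3 of PN11 WT corneas, and the other 8 arrays, 4 of Klf5CN and 4 of WT corneas at postnatal day 56 (PN56), entered only the shared estimate of spread and the comparison of the 2 ages. Klf5CN mice were Klf5 loxP/loxP, Le-Cre/-, so that Cre recombinase, driven from a Pax6 element in the surface ectoderm that forms the corneal and conjunctival epithelium, the lens and the eyelid skin, removed the floxed part of Klf5. WT mice were Klf5 loxP/loxP littermates without Cre, so Cre itself and the deletion cannot be told apart between the groups, and both groups had a mixed strain background. Each array was hybridised with RNA of 1 mouse, from both of its corneas, cut around the limbus and pooled. The tissue therefore held epithelium, stroma and endothelium, of which the epithelium was the targeted layer. All 45101 probe sets of the array entered. Levels are log2 of the deposited signal, with signals under 10 set to 10, so that 3.32 is the lowest value a probe set could take. Values of a group stand in the order of its replicates 1, 2 and 3.

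Klf5 is a zinc finger transcription factor of the Krüppel-like family that binds GC-rich promoter elements, and it is abundant in proliferating and barrier epithelia such as those of the gut, the bladder, the airway, the skin and the cornea. The cornea of a mouse pup is thin and lies closed under the fused eyelids, and its epithelium stratifies and takes on its mature program of keratins, detoxifying enzymes and surface glycoproteins around the time of eyelid opening. A healthy cornea holds few immune cells and no blood vessels. An epithelium under stress releases chemokines and interleukin 1 family cytokines that draw neutrophils and monocytes from the limbal vessels.

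The Klf5 probe sets were read in every array first. The brightest of the 3 over the whole series had log2 signals of 7.80, 7.66 and 7.06 in Klf5CN corneas, against 8.43, 8.51 and 8.07 in WT corneas. The second had 7.15, 6.93 and 6.69 in Klf5CN corneas, against 10.41, 10.34 and 10.18 in WT corneas. The third had 3.67, 3.74 and 4.19 in Klf5CN corneas, against 9.21, 8.91 and 9.18 in WT corneas. No Klf5CN array reached a WT array on any of them. The differences, Klf5CN minus WT, were -0.83 ± 0.23 (SE, limma adjusted p = 0.05), -3.39 ± 0.34 (adjusted p = 8.4e-05) and -5.23 ± 0.48 (adjusted p = 4e-05), so that the second and the third fell 10.5-fold and 37.6-fold while the brightest missed the 2-fold minimum. Which probe sets lie in the deleted part of the gene, on mouse chromosome 14, was not stated in the study's methods or the array's annotation, and the remaining signal also includes the layers that Cre did not target.

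**Figure D1:**
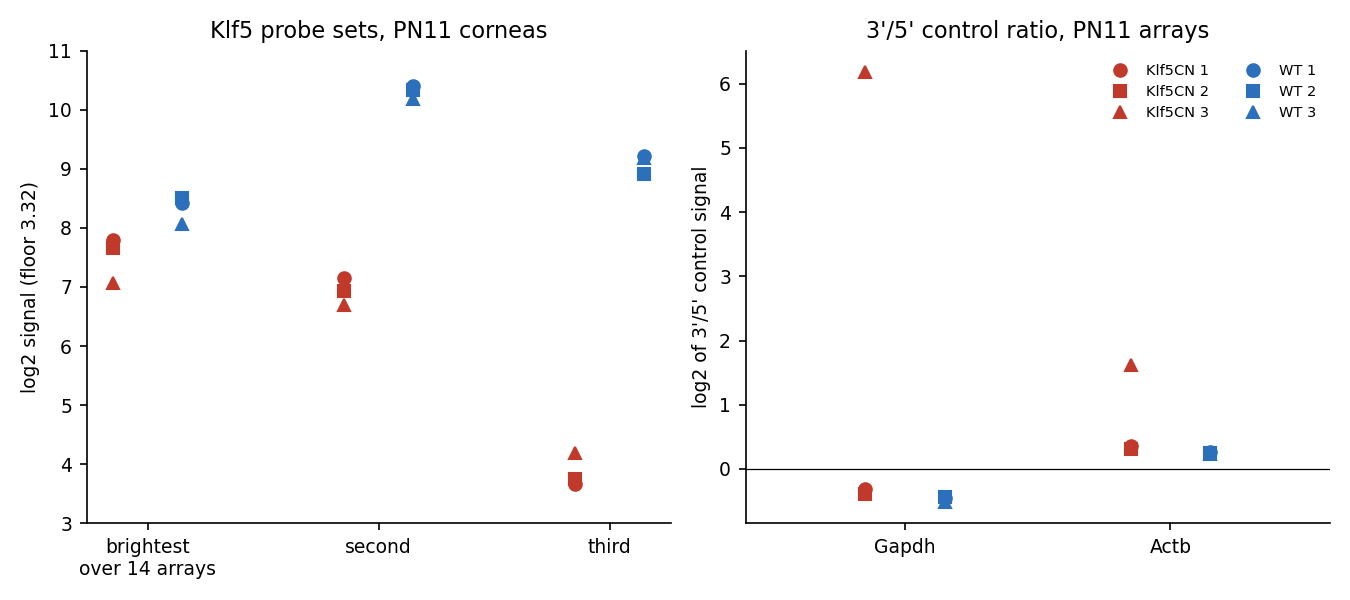
Left, log2 signal of the 3 Klf5 probe sets, and right, log2 of the 3′ over the 5′ signal of the Gapdh and Actb control probe sets, with a point for each PN11 array and Klf5CN (red) left of WT (blue). The Klf5CN arrays lie under the WT arrays on each Klf5 probe set, and Klf5CN replicate 3 stands apart at a Gapdh ratio of 6.18 and an Actb ratio of 1.62.

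Klf5CN replicate 3 stood apart from the other arrays before any gene was compared. Its log2 ratio of 3′ to 5′ signal, which rises as RNA gets shorter, was 6.18 for Gapdh, against -0.54 to 0.65 on the other 13 arrays of the series, and 1.62 for Actb, against 0.23 to 1.4. It correlated with the other Klf5CN replicates at r = 0.947 and 0.953 over the tested probe sets, while those 2 correlated with each other at 0.983 and the WT replicates at 0.98 to 0.983. The ratios averaged 1.82 in Klf5CN and -0.47 in WT corneas for Gapdh, and 0.76 and 0.25 for Actb, each at an exact two-sided permutation p of 0.1, the smallest that 3 against 3 arrays allow. Markers of all 3 layers were present in both groups. The epithelial markers Krt12, Krt5, Krt14 and Aldh3a1, the stromal Kera, Lum and Dcn and the endothelial Col8a2 differed by -0.33 to 0.17 log2, while Pax6 differed by -0.52 and the endothelial Slc4a11 by -0.62, and none was called. The second probe set of Slc4a11 had every Klf5CN array under every WT array (-1.21, adjusted p = 0.084). On the list of 13 corneal endothelium genes 2 rose and none fell, and 1 rose with any 1 array left out. Lens RNA varied within both groups, with Crygs at 6.91, 8.22 and 11.60 in Klf5CN and 8.66, 6.43 and 10.40 in WT corneas, and none of 17 lens genes was called by limma (0 at an unadjusted p under 0.05). Retina genes lay higher in Klf5CN corneas, with a median of 1.23 over 15 genes, against 0 over all genes, and a summed signal of 721 to 2565 in Klf5CN and 488 to 745 in WT corneas. In 6 of the 15 every Klf5CN array lay above every WT array, as it did in 18.8% of all genes tested. None of the 15 was called by limma (2 at an unadjusted p under 0.05). The skeletal muscle actin Acta1 reached 7.97 in Klf5CN replicate 2, against 6.31 and 5.47 in the other Klf5CN replicates and 5.23 to 5.50 in WT corneas. Of 11 skeletal muscle genes 2 rose and none fell, and none rose without WT replicate 1, 2 or 3 and 1 without Klf5CN replicate 2. These 2 were Myl1 (4.53, 8.36 and 5.19 in Klf5CN corneas and at the floor in WT corneas) and Mb (4.70, 6.58 and 4.58, against 4.14, 3.77 and 3.61 in WT corneas), both chosen after their values were seen. Their part in the results was not tested.

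Of the 13660 genes tested, 519 (3.80%) rose and 202 (1.48%) fell in Klf5CN corneas by more than 2-fold at a limma adjusted p below 0.05. The median log2 difference was 1.65 among the genes that rose, -1.28 among those that fell and 0 over all genes tested. The rises were also the larger changes, with 165 genes up and 21 down over 4-fold, 43 up and 2 down over 8-fold, and 17 up and none down over 16-fold. Each gene counts here by its brightest tested probe set over the 14 arrays. Klf5, at -0.83 on that probe set, is therefore not among the falls. In 518 of the 519 genes that rose and all 202 that fell, the 3 Klf5CN arrays did not overlap the 3 WT arrays, which was also true of 18.8% (above) and 16.5% (below) of all genes tested. Without Klf5CN replicate 3 the counts were 518 higher and 188 lower, of which 436 and 148 were genes called with it. Without WT replicate 1, the only array whose removal moved a count by more than 1.5 times, they were 279 and 114. With any 1 of the 6 arrays left out, 246 higher and 83 lower genes were still called each time, and a call is said to be lost here where leaving out an array took a gene past either threshold. In 125 of the higher and 22 of the lower genes the detection call was Absent on all 3 arrays of the low group, and in another 35 and 9 at least 1 array of the low group was at the floor, so the folds of all these genes are lower bounds. Another limit is that 9 of the higher and 6 of the lower genes were Absent on all 6 arrays.

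**Figure D2:**
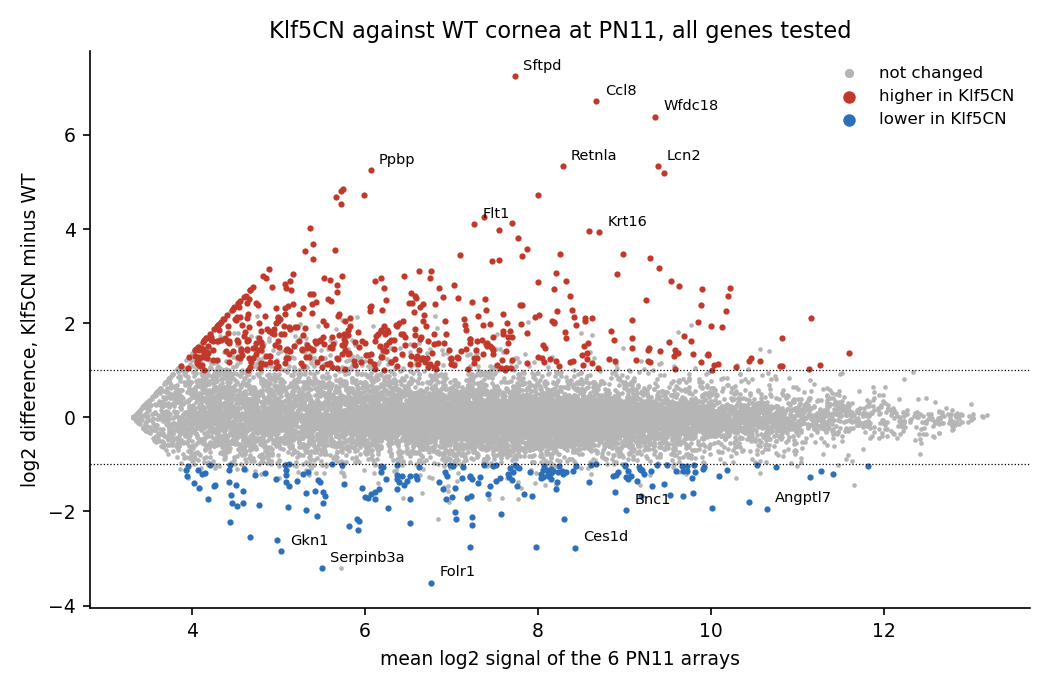
Log2 difference, Klf5CN minus WT, against mean log2 signal of the 6 PN11 arrays for the 13660 genes tested, with the 519 higher genes in red, the 202 lower in blue and dotted lines at 2-fold. The rises reach 7.25 log2 (Sftpd), while the falls end at -3.51 (Folr1). Each gene is shown by its brightest probe set, which places Klf5 at -0.83.

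Genes of secreted defence proteins were among the steepest rises. Sftpd, the surfactant protein D collectin that binds sugars on microbes, had log2 signals of 11.52, 11.38 and 11.18 in Klf5CN corneas, against 4.20, 4.81 and 3.32 in WT corneas. Wfdc18, a small secreted protein with a whey acidic protein fold, had 12.72, 12.46 and 12.47 in Klf5CN corneas, against 6.58, 6.78 and 5.12 in WT corneas. Both genes were high on every Klf5CN array and low on every WT array, with differences of 7.25 ± 0.39 (SE, at least 152-fold, adjusted p = 1.7e-07) and 6.39 ± 0.40 (83.7-fold, adjusted p = 7.7e-07). Lcn2, which takes up iron-bearing bacterial siderophores, had 12.04, 12.06 and 12.09 in Klf5CN corneas, against 6.61, 6.77 and 6.78 in WT corneas (40.5-fold, adjusted p = 5.5e-05). The iron-binding lactoferrin gene Ltf had 12.15, 12.03 and 11.99 in Klf5CN corneas, against 6.85, 7.26 and 6.44 in WT corneas (36.9-fold, adjusted p = 1.3e-07). In each of these 4 genes the Klf5CN replicates lay closer to each other than the WT replicates did, Klf5CN replicate 3 included. The haemoglobin scavenger Hp had 8.13, 9.17 and 7.77 in Klf5CN corneas and was Absent on all WT arrays, at 3.47, 3.32 and 4.09, which makes it at least 26.5-fold higher (adjusted p = 0.0009). Of the 26 tested members of the list of secreted defence and acute phase proteins 15 (57.7%) rose and none fell, against 3.80% and 1.48% of all genes, with a median of 1.65 against 0 over all genes. Among them were also the copper carrier Cp (3.38 log2, adjusted p = 0.00082), the acute phase protein Orm1 (at least 5.87-fold, adjusted p = 9.5e-06), the lipopolysaccharide-binding protein Lbp (1.52, adjusted p = 0.016) and the antiprotease Serpina3n (1.68, adjusted p = 0.0081). The call of Lbp was lost without Klf5CN replicate 1, Klf5CN replicate 2 or WT replicate 1 (adjusted p = 0.054 to 0.08). Of the 22 serpin genes, most of which encode protease inhibitors, 4 rose and 1, Serpinb3a, fell, with a median of 0.20. Among protease inhibitors outside the defence list, Spink12 was at least 23.2-fold higher (adjusted p = 7.7e-07), Serpinb6b rose 7.41-fold (adjusted p = 8.4e-05) and Serpina1b was at least 4.97-fold higher (adjusted p = 6.9e-05), although probe sets of such multigene families may read near-identical copies.

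Genes for chemokines, which steer leukocytes, rose as well. Ccl8, a ligand of Ccr8 in mice, had 12.48, 12.24 and 11.39 in Klf5CN corneas, against 5.28, 5.45 and 5.22 in WT corneas (106-fold, adjusted p = 9.2e-05). Of the 7 tested neutrophil-attracting CXC chemokines and their receptors 6 rose and none fell, with a median of 3.95. Ppbp had 9.26, 7.97 and 8.82 in Klf5CN corneas, against 3.32, 3.32 and 3.68 in WT corneas (at least 37.9-fold, adjusted p = 0.0014). Cxcl2 had 7.85, 7.08 and 7.16 in Klf5CN corneas, against 3.32, 3.41 and 3.32 in WT corneas (at least 16.2-fold, adjusted p = 0.0045). Both were at or near the floor in each WT cornea and far above it in each Klf5CN cornea. Cxcl3 had 8.85, 7.36 and 8.17 in Klf5CN corneas and was Absent and at 3.32 on all WT arrays (at least 27.9-fold, adjusted p = 0.0018). Cxcl5 rose 15.4-fold (adjusted p = 0.0026) and Cxcl1 7.35-fold (adjusted p = 0.016), while the call of Cxcl1 was lost without Klf5CN replicate 1, Klf5CN replicate 2 or WT replicate 1 (adjusted p = 0.054 to 0.077). The second probe set of Cxcl1 (8.07-fold, adjusted p = 0.0096) kept its call with any 1 array left out, and the third lost it without WT replicate 1. The receptor of these ligands, Cxcr2, passed the test, but its probe set was Absent on all 6 arrays, so no fold is given for it and 5 of the 7 rose without it.

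The genes of Cxcl1, Cxcl2, Cxcl3 and Ppbp lie in a cluster on chromosome 5, and because they moved together the 250 bases before each start are shown, read on the plus strand from RefSeq on GRCm38.p6, with matches to the NF-kB consensus of 10 letters in capitals. They are at chr5:90890995-90891244 (Cxcl1), chr5:90903649-90903898 (Cxcl2), chr5:90785851-90786100 (Cxcl3) and chr5:90768268-90768517 (Ppbp). NF-kB is the transcription factor that many inflammatory signals activate.
Cxcl1: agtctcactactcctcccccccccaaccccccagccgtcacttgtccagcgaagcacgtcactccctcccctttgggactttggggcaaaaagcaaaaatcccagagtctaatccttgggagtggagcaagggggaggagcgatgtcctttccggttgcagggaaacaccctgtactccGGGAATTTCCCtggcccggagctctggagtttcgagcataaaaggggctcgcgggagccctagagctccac
Cxcl2: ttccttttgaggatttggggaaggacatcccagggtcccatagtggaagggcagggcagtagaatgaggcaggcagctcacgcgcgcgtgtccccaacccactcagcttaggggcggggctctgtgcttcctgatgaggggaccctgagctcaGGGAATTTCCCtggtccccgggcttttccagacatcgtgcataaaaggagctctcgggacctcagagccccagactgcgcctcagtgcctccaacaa
Cxcl3: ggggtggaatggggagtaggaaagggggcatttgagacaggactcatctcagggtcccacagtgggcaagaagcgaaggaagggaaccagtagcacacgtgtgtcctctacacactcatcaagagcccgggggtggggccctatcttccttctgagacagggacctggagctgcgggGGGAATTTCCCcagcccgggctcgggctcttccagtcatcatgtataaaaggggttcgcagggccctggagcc
Ppbp: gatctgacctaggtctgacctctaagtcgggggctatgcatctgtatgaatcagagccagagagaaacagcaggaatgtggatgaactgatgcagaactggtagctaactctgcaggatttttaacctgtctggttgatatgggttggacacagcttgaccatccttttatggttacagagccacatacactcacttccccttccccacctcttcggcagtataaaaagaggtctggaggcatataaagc
The first 3 windows each held the same run of 11 capitals, in which 2 matches, 1 on each strand, overlap. It began 71, 97 and 73 bases before the start of Cxcl1, Cxcl2 and Cxcl3, and no match stood in the window of Ppbp. Counted by gene, a match to this consensus on either strand in any window of the gene occurred in 4.46% of the 27025 genes with a window. The share was 5.61% of such genes that were tested, 7.46% of the 389 that rose and 5.23% of the 153 that fell.

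Among the CC chemokines and receptors 11 of 25 rose and none fell, with a median of 1.98. Ccl9 rose 11.1-fold (adjusted p = 0.0044). Ccl5, a ligand for T cells and monocytes, was at least 8.89-fold higher (adjusted p = 0.0044), with 6.31, 6.51 and 6.60 in Klf5CN corneas and 3.32 on each WT array. The monocyte attractants Ccl2 and Ccl7 were at least 6.82-fold and 8.30-fold higher (adjusted p = 0.011 and 0.013). Ccl2 was not called without WT replicate 1 (adjusted p = 0.055), and Ccl7 lost its call without Klf5CN replicate 1, Klf5CN replicate 2 or WT replicate 2 (adjusted p = 0.05 to 0.057). Cxcl17, a mucosal chemokine, had 9.56, 9.84 and 9.13 in Klf5CN corneas, against 5.34, 5.52 and 4.88 in WT corneas (19.2-fold, adjusted p = 7.7e-07).

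Of the 18 tested genes of the interleukin 1 family 8 rose and none fell, with a median of 1.08. Il1b had 7.94, 8.29 and 7.63 in Klf5CN corneas, against 4.88, 4.96 and 5.01 in WT corneas (8.01-fold, adjusted p = 0.0038). Il1a rose 3.85-fold (adjusted p = 0.00047). Il1f6 and Il1f9, the interleukin 36 alpha and gamma genes of surface epithelia, were at least 5.04-fold (adjusted p = 0.001) and 5.10-fold higher (adjusted p = 0.0012). The decoy receptor Il1r2 rose 7.02-fold (adjusted p = 0.0015). All 5 of these kept their call with any 1 array left out. Tslp, an epithelial cytokine of type 2 responses, had 6.85, 6.28 and 7.26 in Klf5CN corneas, against 4.86, 4.87 and 4.50 in WT corneas (4.14-fold, adjusted p = 0.0026). Socs3, the feedback inhibitor of the interleukin 6 and Csf3 receptors, had 9.55, 9.91 and 9.53 in Klf5CN corneas, against 5.92, 6.31 and 6.02 in WT corneas (12-fold, adjusted p = 0.015), with the call lost without Klf5CN replicate 2, WT replicate 1 or WT replicate 3 (adjusted p = 0.05 to 0.065). On the list of the interleukin 6 family, the colony stimulating factors and Socs genes 6 of 30 rose and 1 fell, but 1 rose without WT replicate 1, 2 without Klf5CN replicate 2 or WT replicate 3, and 3 without Klf5CN replicate 1 or WT replicate 2, and none fell with any 1 array left out.

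**Figure D3:**
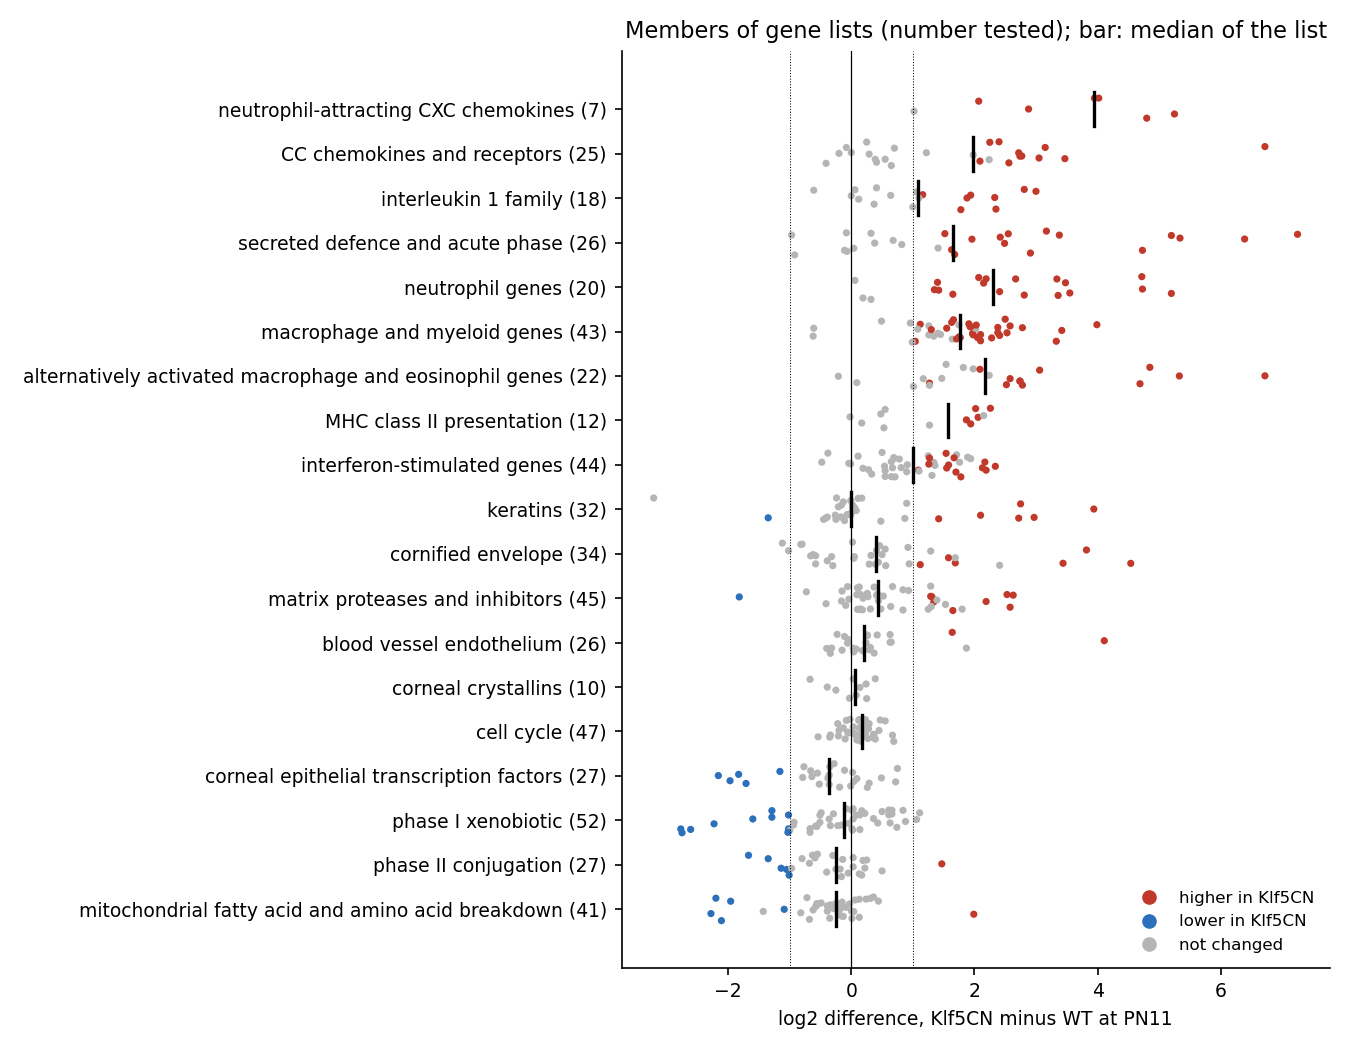
Log2 difference, Klf5CN minus WT, of every tested member of 19 gene lists, with the number tested behind each name, higher genes in red, lower in blue, the others in grey and a black bar at the median of each list. The lists of chemokines, defence proteins and leukocyte genes lie to the right. The corneal transcription factors, the phase I and II enzymes and the mitochondrial breakdown genes hold most of the falls, with 1 more each among keratins and matrix proteases.

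Genes of several leukocyte types rose. In whole corneas more cells of a type and more RNA per cell cannot be told apart. Of the 20 tested neutrophil genes 17 (85%, or 16 without Cxcr2) rose and none fell, with a median of 2.30, and their summed signal was 13568 to 15696 in Klf5CN and 4324 to 4891 in WT corneas. S100a9, which with S100a8 makes the neutrophil protein calprotectin, had 10.10, 10.21 and 10.77 in Klf5CN corneas, against 4.96, 5.49 and 6.46 in WT corneas (26.4-fold, adjusted p = 0.00091). S100a8 rose 11.1-fold (adjusted p = 0.0057), and keratinocytes can express this pair as well. The neutrophil growth factor receptor Csf3r had 7.02, 7.70 and 6.32 in Klf5CN corneas, against 4.47, 4.09 and 4.47 in WT corneas (6.37-fold, adjusted p = 0.0066). The C-type lectin receptor Clec4d rose 10.3-fold (adjusted p = 0.0021). Replicate 3 was the highest Klf5CN array for S100a9 and the lowest for Csf3r, and no WT array reached any Klf5CN array for either gene.

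Of the 43 tested macrophage and myeloid genes 29 rose and none fell, with a median of 1.77. This count moved with single arrays, to 10 without WT replicate 1, 15 to 19 without any 1 of Klf5CN replicates 1 and 2 and WT replicates 2 and 3, and 33 without Klf5CN replicate 3. The summed signal of the list was 19723 to 31854 in Klf5CN and 6313 to 7888 in WT corneas. Cd14, the coreceptor for bacterial lipopolysaccharide, had 9.89, 9.81 and 8.90 in Klf5CN corneas, against 5.96, 6.11 and 6.27 in WT corneas (10.7-fold, adjusted p = 0.00031). Ms4a6d rose 10.1-fold (adjusted p = 0.0051) and the leukocyte adaptor Cytip 15.8-fold (adjusted p = 0.0006). The defining macrophage markers Cd68 (1.04 log2, adjusted p = 0.02) and Adgre1 (1.55, adjusted p = 0.019) were called, and Csf1r, at 11.33, 11.36 and 11.20 in Klf5CN corneas and 9.65, 10.06 and 9.82 in WT corneas, was not (1.45, adjusted p = 0.071). The call of Cd68 was lost without any 1 array but Klf5CN replicate 3 (adjusted p = 0.065 to 0.083), and that of Adgre1 without Klf5CN replicate 1, Klf5CN replicate 2, WT replicate 1 or WT replicate 2 (0.057 to 0.1). The first component of the classical complement pathway showed how Klf5CN replicate 3 could differ. C1qb rose 4.14-fold (9.64, 9.94 and 9.12 in Klf5CN corneas, against 7.21, 7.76 and 7.58 in WT corneas, adjusted p = 0.011), while C1qa, chosen after its values were seen, had 10.78, 10.83 and 6.54 in Klf5CN corneas, against 8.13, 8.43 and 8.62 in WT corneas, and was not called (adjusted p = 0.57).

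Genes of alternatively activated macrophages and eosinophils, which type 2 cytokines induce, made up 12 rises of 22 tested, with no fall and a median of 2.17. Retnla, a secreted product of such macrophages, had 10.90, 11.52 and 10.43 in Klf5CN corneas, against 4.87, 6.87 and 5.11 in WT corneas (40.3-fold, adjusted p = 0.0032). The lectin Cd209e had 8.64, 9.04 and 6.83 in Klf5CN corneas and the eosinophil ribonuclease Rnase2a 7.65, 9.68 and 6.71, and both were Absent and at 3.32 on all WT arrays (at least 28.8-fold and 25.8-fold, adjusted p = 0.0021 and 0.0045). The lowest Klf5CN value of both genes was replicate 3. Alox15, a lipoxygenase of eosinophils, macrophages and corneal epithelium, rose 8.34-fold (adjusted p = 0.0049). The mannose receptor Mrc1 rose 6.86-fold (adjusted p = 0.012) and the haemoglobin receptor Cd163 5.96-fold (adjusted p = 0.037), and their calls were lost without Klf5CN replicate 1 or WT replicate 1 for Mrc1 (0.052 and 0.056) and without any 1 array but Klf5CN replicate 3 for Cd163 (0.057 to 0.14).

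Antigen presentation through MHC class II rose in 5 of 12 tested genes, with none lower and a median of 1.57, and in 3 without WT replicate 1. The invariant chain Cd74 had 11.56, 11.45 and 10.89 in Klf5CN corneas, against 8.93, 9.21 and 8.99 in WT corneas (4.78-fold, adjusted p = 0.01, and 0.052 without WT replicate 1). H2-Ab1 and the lysosomal protease Ctss that cuts the invariant chain rose 4.16-fold and 3.83-fold (adjusted p = 0.0066 and 0.0011), and both calls held with any 1 array left out. Of the T and NK cell genes 7 of 19 rose and none fell, at low signals. The T cell receptor complex subunit Cd3g was at 5.26, 5.42 and 5.55 in Klf5CN corneas and Absent at 3.32 on all WT arrays (at least 4.26-fold, adjusted p = 0.0014). The T and NK count was 3 without Klf5CN replicate 1 or WT replicate 1 and 4 without Klf5CN replicate 2 or WT replicate 2 or 3. No mast cell gene of 15 was called by limma (7 at an unadjusted p under 0.05), and the mast cell protease Cpa3 was at 9.27, 9.97 and 9.38 in Klf5CN corneas and 8.79, 9.05 and 8.91 in WT corneas.

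Interferon-stimulated genes, the antiviral program downstream of interferons, rose in 13 of 44, with none lower and a median of 1, and the count depended on single arrays. Ifit1 had 8.22, 9.29 and 10.93 in Klf5CN corneas, against 7.41, 7.52 and 7.11 in WT corneas (4.37-fold, adjusted p = 0.043), and Oasl2 had 7.51, 8.62 and 9.53, against 6.78, 6.95 and 6.83 in WT corneas (3.25-fold, adjusted p = 0.029). Replicate 3 was the highest array for both, and without it they were not called (adjusted p = 0.14 and 0.099), nor did they keep the call without Klf5CN replicate 2 or any 1 WT array (0.07 to 0.14). The count was 5 without Klf5CN replicate 3, 4 without WT replicate 1 or WT replicate 3, and 6 without Klf5CN replicate 2 or WT replicate 2. Oasl1 (7.56, 7.70 and 8.17 in Klf5CN corneas, against 5.29, 5.49 and 5.65 in WT corneas, 5.05-fold, adjusted p = 1.6e-05) and the nucleic acid sensor Zbp1 (4.51-fold, adjusted p = 0.0068) kept their calls with any 1 array left out.

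Among signalling and transcription factor genes of inflammation, 6 of 38 NF-kB and AP-1 genes rose and none fell, 3 of them without WT replicate 1. The immediate early factor Egr2 rose 4.41-fold (adjusted p = 0.00067), the stress factor Atf3 3.41-fold (adjusted p = 0.0017) and the survival factor Birc3, an NF-kB target, 2.76-fold (adjusted p = 0.00046). Nfkb2, a subunit of NF-kB, was at 7.28, 7.09 and 5.16 in Klf5CN corneas and 6.57, 6.30 and 6.17 in WT corneas, with replicate 3 apart, and was not called (adjusted p = 0.88). Outside that list, Litaf, which is induced by lipopolysaccharide, rose 2.78-fold (adjusted p = 0.0012), and Sox4, a factor of progenitor cells, 2.28-fold (adjusted p = 0.0082).

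Among epithelial genes, 6 of 32 keratin genes rose and 1 fell, around a median of 0. The fall was of Krt13, a mucosal keratin chosen after its values were seen (-1.35, adjusted p = 0.041, and lost without any 1 array but Klf5CN replicate 2). Krt16, a keratin of wounded and hyperproliferative epidermis, had 11.06, 10.92 and 10.04 in Klf5CN corneas, against 6.91, 6.38 and 6.93 in WT corneas (15.3-fold, adjusted p = 0.0027). Its companion Krt17 had 11.70, 10.95 and 11.11 in Klf5CN corneas, against 8.85, 8.23 and 8.53 in WT corneas (6.59-fold, adjusted p = 0.0024). The keratins of simple epithelia rose as a pair. Krt18 had 11.76, 11.55 and 11.46 in Klf5CN corneas, against 9.07, 8.66 and 8.80 in WT corneas (6.71-fold, adjusted p = 9.6e-05), and Krt8 had 12.39, 12.04 and 12.22, against 10.40, 10.17 and 9.77 in WT corneas (4.29-fold, adjusted p = 0.00093). Krt23 rose 7.84-fold (adjusted p = 0.00074). All 5 kept their calls with any 1 array left out, and Krt12, the keratin particular to cornea, was at 12.94, 12.78 and 12.94 in Klf5CN corneas and 13.10, 12.72 and 12.70 in WT corneas (adjusted p = 0.96). Krt4, a keratin of mucosal epithelia chosen after its values were seen, had 4.61, 4.20 and 3.55 in Klf5CN corneas, against 6.89, 7.60 and 7.51 in WT corneas, but the spread over the series left it without a call (-3.21 ± 1.09, SE, adjusted p = 0.1).

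Of 34 cornified envelope genes, which serve the outer layers of skin, 6 rose and none fell. Sprr1a, a crosslinked envelope protein, had 9.41, 10.15 and 9.46 in Klf5CN corneas, against 6.32, 5.54 and 5.71 in WT corneas (14.1-fold, adjusted p = 0.0063). Spink5, the inhibitor of the kallikreins that shed skin cells, had 9.07, 8.62 and 8.75 in Klf5CN corneas, against 5.14, 5.61 and 5.38 in WT corneas (10.8-fold, adjusted p = 6.5e-06). The skin proteins Sbsn and Krtdap rose 3.22-fold and 2.98-fold (adjusted p = 0.008 and 0.0051).

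Adhesion and surface genes moved both ways, and of 27 genes of surface mucins and superficial cells 5 rose and 1 fell, with 2 rises left without WT replicate 1 and 3 without Klf5CN replicate 1, Klf5CN replicate 2, WT replicate 2 or WT replicate 3. The desmosomal cadherin Dsg1a had 8.44, 8.63 and 9.41 in Klf5CN corneas, against 10.79, 10.41 and 10.32 in WT corneas (fell 3.21-fold, adjusted p = 0.0096, and 0.057 without WT replicate 1), and it was the 1 gene called of 16 desmosome genes. Gjb5, a connexin of stratified epithelia, fell 2.82-fold (adjusted p = 0.0013). Upk1b, a tetraspanin of the apical membrane, had 10.77, 10.30 and 11.05 in Klf5CN corneas, against 11.92, 11.65 and 11.98 in WT corneas (fell 2.21-fold, adjusted p = 0.0015), and dropped under the 2-fold minimum without Klf5CN replicate 2 (-0.94). The second probe set of Upk1b also lost its call without that array. The third (-1.37, adjusted p = 0.001) kept its call with any 1 array left out, and the dimmest was not called (adjusted p = 0.076). None of 31 hemidesmosome and basement membrane genes was called by limma (9 at an unadjusted p under 0.05). Gcnt2, the enzyme that branches poly-N-acetyllactosamine chains, had 8.46, 8.38 and 8.13 in Klf5CN corneas, against 4.87, 5.54 and 5.22 in WT corneas (8.65-fold, adjusted p = 0.00043). The mucin genes Muc1 (0.31) and Muc20 (-0.58) stayed within 2-fold.

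**Figure D4:**
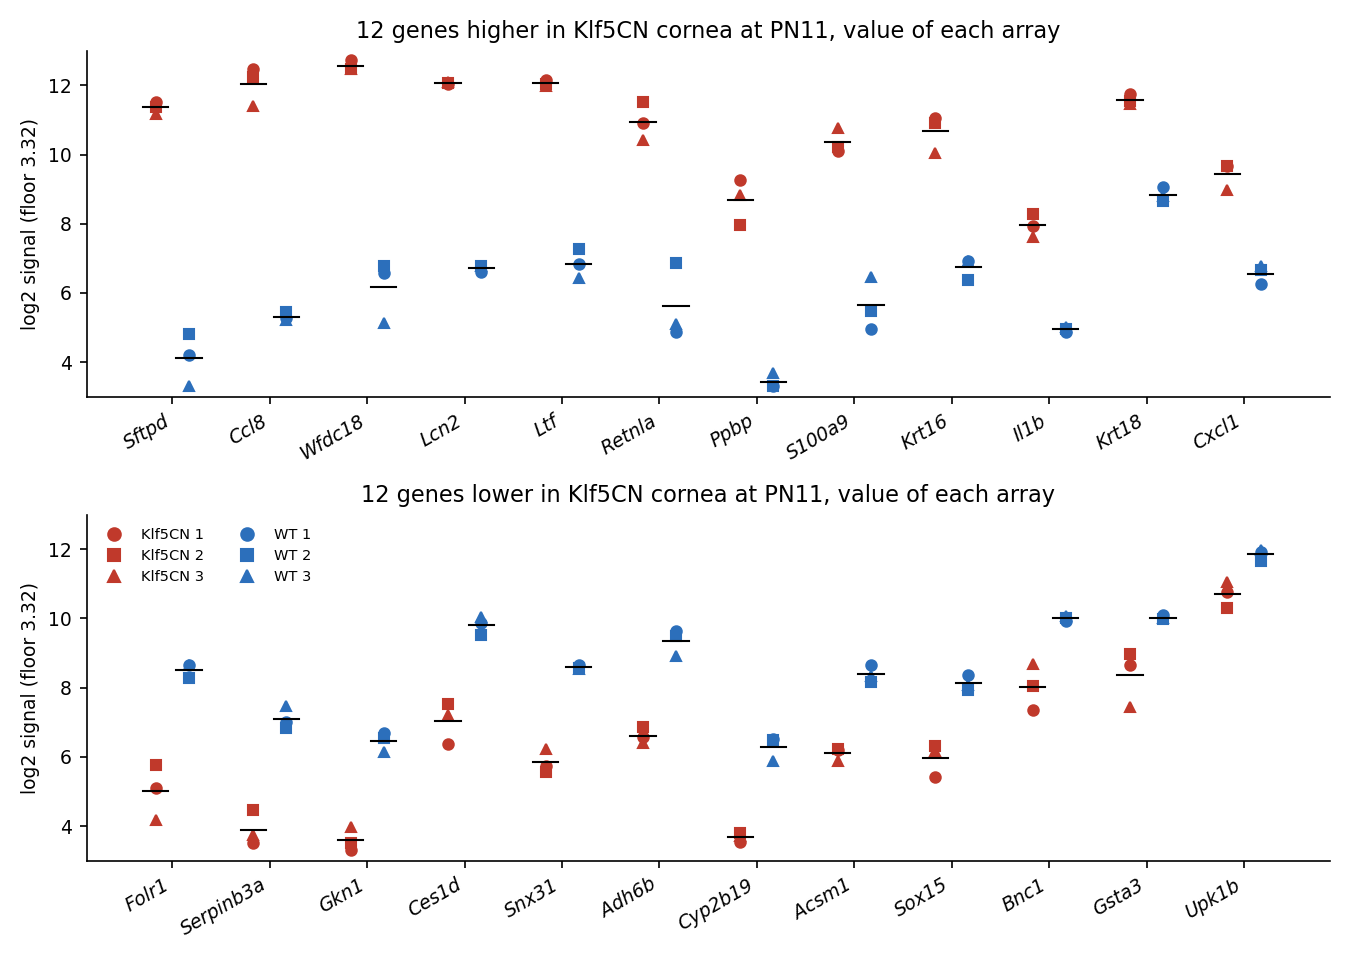
Log2 signal of each PN11 array for 12 genes that rose (top) and 12 that fell (bottom), with Klf5CN (red) left of WT (blue), a symbol for each replicate and a black line at each group mean. In none of these genes do the groups overlap, from Sftpd, whose Klf5CN values of 11.52, 11.38 and 11.18 stand above WT values of 4.20, 4.81 and 3.32, to Upk1b, whose Klf5CN values reach 11.05 and whose WT values begin at 11.65.

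The transcription factors of corneal epithelium held falls and no rise, 5 of 27 at a median of -0.36. Sox15, a factor of stratified epithelia, had 5.42, 6.31 and 6.18 in Klf5CN corneas, against 8.36, 7.94 and 8.08 in WT corneas (fell 4.46-fold, adjusted p = 0.00087). Bnc1, a zinc finger protein of proliferating basal keratinocytes, had 7.36, 8.05 and 8.69 in Klf5CN corneas, against 9.94, 10 and 10.06 in WT corneas (fell 3.91-fold, adjusted p = 0.004). Its 3 Klf5CN values were spread over more than 1 log2 unit, and the highest was still under every WT value. Ascl2 was at least 3.28-fold lower (adjusted p = 0.00073), and Etv4, an ETS factor downstream of FGF signals, at least 3.56-fold lower (adjusted p = 0.0015). That Etv4 probe set was Present on only 1 WT array. The other Etv4 probe set, Present on all 3 WT arrays, had overlapping groups and was not called (-0.62, adjusted p = 0.36). Ovol2 fell 2.23-fold (adjusted p = 0.02, and 0.063 to 0.09 without Klf5CN replicate 1, Klf5CN replicate 3, WT replicate 1 or WT replicate 3). Pax6, the regulator of eye development, was at 10.62, 10.69 and 11.53 in Klf5CN corneas and 11.59, 11.40 and 11.40 in WT corneas and was not called (-0.52, adjusted p = 0.16). Its Klf5CN replicate 3 was the 1 Klf5CN array to overlap WT, and without it the difference was -0.81 (adjusted p = 0.007), still within 2-fold. On each of the other 4 Pax6 probe sets all Klf5CN arrays lay under all WT arrays, with differences of -0.53 to -2.48 and none called (adjusted p = 0.063 to 0.38), and the mean of the 5 probe sets was called lower (-1.16, adjusted p = 0.014). The other KLF genes were not called either, limma finding 7 of the 14 family members, Klf5 included, at an unadjusted p under 0.05, with Klf4 at -0.45 (adjusted p = 0.14).

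Gkn1, a protein secreted by stomach surface cells, had 3.32, 3.52 and 3.97 in Klf5CN corneas, against 6.70, 6.54 and 6.14 in WT corneas (at least 7.22-fold lower, adjusted p = 0.0031). For Gkn1, Bnc1 and Sox15, which were lower on every Klf5CN array than on any WT array, the 250 bases before the start are shown 5′ to 3′ from RefSeq on GRCm38.p6, with matches to the KLF and Sp consensus CCNCNCCC on either strand in capitals. They lie at chr6:87350916-87351165 (minus strand, Gkn1), chr7:81992300-81992549 (minus strand, Bnc1) and chr11:69654787-69655036 (plus strand, Sox15).
Gkn1: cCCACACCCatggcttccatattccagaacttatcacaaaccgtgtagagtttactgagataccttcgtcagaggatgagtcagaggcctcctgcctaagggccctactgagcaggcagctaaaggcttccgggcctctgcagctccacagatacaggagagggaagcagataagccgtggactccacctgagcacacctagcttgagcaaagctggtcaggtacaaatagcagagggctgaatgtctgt
Bnc1: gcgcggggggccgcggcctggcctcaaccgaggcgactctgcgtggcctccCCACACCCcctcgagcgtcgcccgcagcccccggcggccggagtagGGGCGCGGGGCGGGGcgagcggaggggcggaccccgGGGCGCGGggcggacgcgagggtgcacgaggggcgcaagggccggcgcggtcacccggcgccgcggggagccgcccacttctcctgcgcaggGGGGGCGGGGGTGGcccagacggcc
Sox15: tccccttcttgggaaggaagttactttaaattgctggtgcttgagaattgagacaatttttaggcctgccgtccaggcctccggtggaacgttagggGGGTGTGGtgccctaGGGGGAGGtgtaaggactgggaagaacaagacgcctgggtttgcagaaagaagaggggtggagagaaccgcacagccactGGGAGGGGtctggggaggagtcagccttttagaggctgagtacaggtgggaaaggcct
The windows held 1 match in Gkn1, 7 in Bnc1, some of which overlap, and 3 in Sox15. The match in Gkn1 began 249 bases before its start. Such a match stood in any window of 48.5% of all genes with a window, 68.2% of those tested, 60.4% of those that rose and 69.9% of those that fell.

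Genes of detoxification and lipid metabolism made up another group of falls. Folr1, the folate receptor, was the deepest fall among the tested genes when each was read by its brightest probe set. It had 5.09, 5.77 and 4.18 in Klf5CN corneas, against 8.65, 8.27 and 8.65 in WT corneas (fell 11.4-fold, adjusted p = 5.3e-05). Of 52 phase I genes, whose enzymes oxidise, reduce or hydrolyse drugs and lipids, 10 fell and none rose. The carboxylesterase Ces1d had 6.37, 7.54 and 7.21 in Klf5CN corneas, against 9.87, 9.53 and 10.04 in WT corneas (fell 6.83-fold, adjusted p = 0.00074), and its paralog Ces1e was at least 4.69-fold lower (adjusted p = 0.0012). The alcohol dehydrogenase Adh6b had 6.57, 6.85 and 6.39 in Klf5CN corneas, against 9.65, 9.49 and 8.92 in WT corneas (fell 6.72-fold, adjusted p = 9.8e-05). Cyp2b19, a keratinocyte arachidonic acid epoxygenase, fell 6.10-fold (adjusted p = 0.0012), the fatty acid hydroxylase Cyp4a12a 3.04-fold (adjusted p = 0.00018) and the quinone reductase Nqo1 2.44-fold (adjusted p = 0.00082). Every one of these 6 kept its call with any 1 array left out. The crystallin Aldh3a1, the most abundant enzyme of this kind in cornea, was not called (12.86, 12.65 and 12.82 in Klf5CN corneas, against 12.83, 12.66 and 12.62 in WT corneas), and none of 10 corneal crystallin genes was called by limma (3 at an unadjusted p under 0.05).

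Phase II genes, which conjugate drugs, fell in 5 of 27 and rose in 1. Gsta3, a glutathione transferase, had 8.65, 8.98 and 7.44 in Klf5CN corneas, against 10.09, 9.98 and 10 in WT corneas (fell 3.17-fold, adjusted p = 0.012, and 0.056 without WT replicate 1). Gsta2, Gstt3, Gstz1 and Mgst2 fell 2.01-fold to 2.54-fold, and each lost its call without at least 1 array. The count of falls was 3 without Klf5CN replicate 1 or Klf5CN replicate 3 and 1 without WT replicate 1. Mitochondrial breakdown of fatty acids and amino acids fell in 5 of 41 genes and rose in 1. The medium-chain acyl-CoA synthetase Acsm1 had 6.19, 6.23 and 5.89 in Klf5CN corneas, against 8.65, 8.17 and 8.33 in WT corneas (fell 4.86-fold, adjusted p = 9.2e-05). The glycine-cleaving Gldc, the alanine transaminase Gpt and the carbamoyl phosphate synthetase Cps1 fell 4.61-fold, 4.33-fold and 3.89-fold (adjusted p = 0.011, 0.00035 and 0.006), and Acaa2, a thiolase of beta-oxidation, 2.13-fold (adjusted p = 0.011, with the call lost without WT replicate 1 or WT replicate 3). The rise was of Arg2, a mitochondrial arginase (at least 3.96-fold, adjusted p = 0.004). The sterol and fatty acid synthesis list of 38 held no call by limma (12 at an unadjusted p under 0.05), and Klf5CN replicate 3 was the lowest array for Fdps (9.74, 9.80 and 7.80 in Klf5CN corneas, against 10.35, 10.08 and 10.51 in WT corneas) and for Fads2 (8.36, 8.42 and 5.31, against 8.80, 8.71 and 8.91 in WT corneas). The other Klf5CN arrays also lay under every WT array for both genes.

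Other large falls lay outside the detoxification and mitochondrial lists above. Serpinb3a, an inhibitor of cysteine proteases, had 3.50, 4.47 and 3.73 in Klf5CN corneas, against 7.02, 6.83 and 7.46 in WT corneas (fell 9.21-fold, adjusted p = 0.0031). The sorting nexin Snx31 fell 6.72-fold (adjusted p = 0.0019), the membrane progesterone receptor Paqr5 4.48-fold (adjusted p = 0.0038) and the calcium sensor of exocytosis Syt7 5.25-fold (adjusted p = 0.0032). Cnpy1, which in zebrafish aids FGF signals, was at least 5.86-fold lower (adjusted p = 6.5e-06), and the hormone Fgf21 fell 4.91-fold (adjusted p = 0.00074). Hlf, a clock output factor, fell 3.17-fold (adjusted p = 0.0053), and Hpgds, a prostaglandin D synthase, 3.21-fold (adjusted p = 0.0028).

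Vessel genes gave a mixed picture. Flt1, the VEGF receptor whose soluble form keeps the cornea free of vessels, had 9.36, 9.42 and 9.15 in Klf5CN corneas, against 5.24, 5.74 and 4.64 in WT corneas (17.2-fold, adjusted p = 8.3e-06). The gene level does not tell the soluble from the membrane form. Icam1, an adhesion molecule of inflamed endothelium and epithelium, rose 3.13-fold (adjusted p = 0.015, and 0.07 without WT replicate 1). These were the 2 calls among 26 vessel genes, whose median was 0.21. The endothelial cadherin Cdh5 was at 7.61, 7.48 and 6.63 in Klf5CN corneas and 6.96, 6.72 and 6.92 in WT corneas (adjusted p = 0.66), and Pecam1 was at 7.07 and 7.12 and at the floor in Klf5CN replicate 3, against 6.14, 6.09 and 6.31 in WT corneas (adjusted p = 0.88).

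Among 45 matrix proteases and inhibitors 8 rose and 1, Adamts18, was at least 3.52-fold lower (adjusted p = 0.0016). The macrophage elastase Mmp12 had 6.62, 6.80 and 6.73 in Klf5CN corneas, against 3.95, 4.70 and 3.60 in WT corneas (6.21-fold, adjusted p = 0.0064). Adam8 was at least 5.79-fold higher (adjusted p = 0.0051) and the gelatinase Mmp9 at least 4.56-fold higher (adjusted p = 0.0088). Mmp3 rose 6-fold (adjusted p = 0.023), with the call lost without Klf5CN replicate 1, Klf5CN replicate 2, WT replicate 1 or WT replicate 3 (adjusted p = 0.064 to 0.096), and the list held 4 rises without WT replicate 1 and 5 without Klf5CN replicate 1, Klf5CN replicate 2 or WT replicate 3. The collagens held 2 rises among 38 genes (5.26%, near the 3.80% of all genes), the larger of Col18a1 (3.20-fold, adjusted p = 0.005), the source of endostatin, and the other of Col23a1 (2.06-fold, adjusted p = 0.0082, lost without Klf5CN replicate 1 or 2). Of 41 Wnt genes 3 (7.32%) rose and 3 (7.32%) fell, against 3.80% and 1.48% of all genes, but the falls were 0 without Klf5CN replicate 1, WT replicate 1 or WT replicate 3 and 1 without any other array. Among the rises was the noncanonical ligand Wnt5b at 7.63, 7.50 and 7.28 in Klf5CN corneas, against 4.95, 5.52 and 5.79 in WT corneas (4.14-fold, adjusted p = 0.0031). Cell cycle genes held no call among 47 by limma (3 at an unadjusted p under 0.05), at a median of 0.17.

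Of 251 solute carriers 9 (3.59%) rose and 5 (1.99%) fell, shares near those of 3.80% and 1.48% over all genes. The glucose transporter Slc5a1 had 9.17, 9.06 and 9.41 in Klf5CN corneas, against 7.57, 7.12 and 7.54 in WT corneas (3.50-fold, adjusted p = 5.3e-05). The prostaglandin transporter Slco2a1 rose 4.24-fold (adjusted p = 0.00023) and the anion exchanger Slc26a4 was at least 7.71-fold higher (adjusted p = 0.01). The water channels split. Aqp4 had 7.28, 6.97 and 7.47 in Klf5CN corneas, against 4.71, 4.08 and 3.91 in WT corneas (8.04-fold, adjusted p = 0.0012), and Aqp3, the glycerol and water channel of epithelium, had 11.16, 11.01 and 10.27, against 12.12, 11.91 and 12 in WT corneas (fell 2.29-fold, adjusted p = 0.0053). On this probe set Aqp3 dropped under the 2-fold minimum without Klf5CN replicate 3 (-0.92, adjusted p = 0.013). Its second probe set was called lower with that array (-1.75, adjusted p = 0.0095) and without it (-1.18, adjusted p = 0.0085). The third was not called with it (-3.57, adjusted p = 0.078) but was without it (-1.46, adjusted p = 0.0051). The corneal Aqp5 was not called (-0.35).

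Probe sets of the same gene were not always called alike. Of 182 higher genes with several tested probe sets 123 had a probe set that was not called higher, and of 71 lower genes 42 had one not called lower, while no gene had probe sets called in opposite directions. In 43 and 22 of these genes such a probe set was Present on all 6 arrays, and in the others none was. Slco1a5, an organic anion transporter, Aqp4 and Gcnt2 were among the 6 changed genes whose probe sets differed most. In Slco1a5 the brighter probe set had 6.91, 7.27 and 7.04 in Klf5CN corneas, against 3.56, 3.50 and 3.56 in WT corneas (11.6-fold, adjusted p = 0.00083), while its second was Absent on all WT arrays and was not called (adjusted p = 0.09). The other 2 probe sets of Aqp4 were Absent on all WT arrays too, as were 3 of the other 4 of Gcnt2, which were at the floor there, and none of these was called. The Absent calls in WT corneas leave the folds of these dim probe sets uncertain. The dimmest of Aqp4 was above the floor on all 6 arrays, at 4.26, 4.15 and 4.25 in Klf5CN and 3.67, 4.06 and 4.64 in WT corneas, a difference of 0.09. The remaining probe set of Gcnt2, Present on 1 WT array, was not called either (1.10, adjusted p = 0.21). Probe sets Present on all 6 arrays differed as well. Another probe set of Socs3 rose 3.87-fold (adjusted p = 0.11), against 12-fold for its brightest. Further probe sets of H2-Ab1 rose 3.07-fold and 4.23-fold (adjusted p = 0.11 and 0.051). The dimmer probe set of Gsta3 differed by -0.50 (adjusted p = 0.26). None of these was called.

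The rise of many of these genes was also seen at PN56. Of the 519 genes higher at PN11, 326 were called higher at PN56, 192 were not called and 1 was called lower. Of the 202 lower genes 58 were called lower at PN56, 143 were not called and 1 was called higher. Over all 13660 genes tested, 970 were called higher and 222 lower at PN56. The difference of the Klf5CN effect between the ages, tested directly, passed an adjusted p of 0.05 in 77 (0.564%) of all genes, and 29 of them were among the 721 genes changed at PN11. With 1 PN11 array left out the 77 became 23 (without WT replicate 1), 30 and 32 (without WT replicate 2 or 3), 34 and 40 (without Klf5CN replicate 2 or 1) and 59 (without Klf5CN replicate 3). Of the 18 that had risen at PN11 and the 11 that had fallen, 3 and 4 were at the floor on all PN56 arrays, which leaves no PN56 effect to measure. Of the other 15 that had risen, 14 had a smaller or opposite effect at PN56 and 1 a larger one, and the other 7 that had fallen had a smaller or opposite effect. Sftpd and Ltf illustrate the first kind. Their means at PN56 were 10.66 and 12.19 in Klf5CN corneas and 8.24 and 10.24 in WT corneas, so that the PN56 differences of 2.42 and 1.95 were below those at PN11. The gene with the larger effect at PN56 was the fatty acid binding protein Fabp4, at 9.62, 10.02 and 9.64 in Klf5CN corneas and 7.90, 7.88 and 8 in WT corneas at PN11 (3.56-fold, adjusted p = 0.001). It averaged 9.44 in Klf5CN and 4.37 in WT corneas at PN56.

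**Figure D5:**
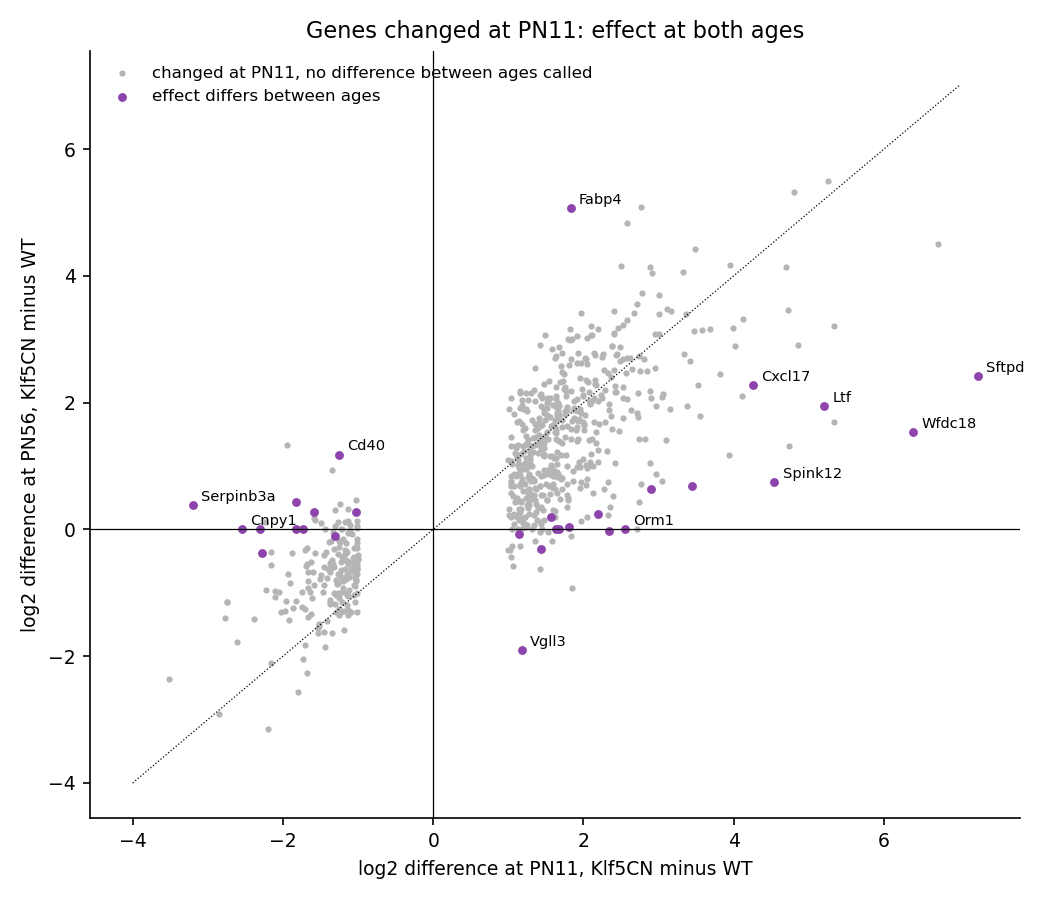
Log2 difference, Klf5CN minus WT, at PN56 against that at PN11 for the 721 genes changed at PN11, with the 29 whose effect differed between the ages in purple and a dotted line where both effects are equal. The 7 purple points of genes at the floor on all PN56 arrays lie at 0 on the PN56 axis. The other purple points lie nearer to 0 on the PN56 axis than on the PN11 axis, apart from Fabp4, at 5.07 on the PN56 axis, and Vgll3, at -1.91.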

How the data were processed

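RNA of PN11 and PN56 mouse corneas was hybridised to Affymetrix mouse whole-genome arrays after amplification from the 3′ end, 1 mouse per array. The deposited signal intensity per probe set was made by the authors with GCOS 1.4 (submitters' processing notes), each array scaled to a trimmed mean of 150. Here signals under 10 were set to 10 and logged to base 2. Probe sets above 20 in at least 3 of the 14 arrays were tested (29416). Each gene was represented by the tested probe set of highest mean log2 signal among those with exactly 1 symbol in the platform annotation (34958 of 45101 had 1, 932 several and 9211 none). limma 3.58.1 (R 4.3.3, lmFit, eBayes with trend) was fitted to 4 groups, with two-sided p-values adjusted by Benjamini-Hochberg over all tested probe sets. The study's own 2-fold minimum was kept. Its rank test cannot go below 0.1 with 3 against 3. A change was called at an adjusted p below 0.05 and over 2-fold. P-values measure the spread between mice of mixed background. Columns of the authors' pairwise comparisons (3) were not used.

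The comparison, gene lists and named genes were chosen with earlier results of these data known. Named genes were taken from Klf5, the 15 largest non-overlapping changes each way, up to 6 called genes per list (or the 2 largest differences), the study's QPCR panel and transcription factors, genes whose effect differed most between ages, those whose probe sets differed most, and defining markers. Not every member of these sets is given, and those left out include genes that were not called. Named besides are C1qa, Krt4, Krt13, Myl1 and Mb. "At least" marks a fold whose lower group was Absent on all 3 arrays or at the floor on any. That group was taken at its measured or floored signal, since probe sets Present on all 3 arrays of a group reached down to 2.9 (Klf5CN) and 2.7 (WT), under the floor. The fits were tested on simulated data. Normalization, floor, filter, weights, covariates, probe set choice and left-out arrays were varied.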

Additional observations from a re-analysis of the deposited data

Results flagged for a closer look

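A part of the 29 genes changed at PN11 whose Klf5CN effect differed between the ages is listed here. The effect of Klf5 loss differed between PN56 and PN11 by the limma test of that difference itself, given here as the PN56 effect minus the PN11 effect on the log2 scale. Among genes that rose at PN11 it was negative for Wfdc18 (-4.85, adjusted p = 0.00053), Sftpd (-4.83, adjusted p = 0.00046), Spink12 (-3.80, adjusted p = 0.00045), Ltf (-3.25, adjusted p = 0.00046), Spink5 (-2.75, adjusted p = 0.0019), Orm1 (-2.55, adjusted p = 0.00046), Oasl1 (-2.37, adjusted p = 0.00056), Cxcl17 (-1.99, adjusted p = 0.023) and Slc5a1 (-1.77, adjusted p = 0.0023). WT corneas had more Sftpd and Ltf RNA at PN56 than at PN11, with means of 8.24 and 10.24 against 4.11 and 6.85. Orm1 was at the floor in both groups at PN56, so its PN56 effect of 0.00 is no measurement. Fabp4 alone among the rises had a positive difference (3.24, adjusted p = 0.00046).

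Among genes that fell at PN11 the difference was positive for Serpinb3a (3.59, adjusted p = 0.043), Cnpy1 (2.55, adjusted p = 0.00045), Fgf21 (2.30, adjusted p = 0.024), Adamts18 (2.24, adjusted p = 0.016), Acsm1 (1.91, adjusted p = 0.015) and Etv4 (1.83, adjusted p = 0.043). On the probe sets used, Cnpy1, Fgf21 and Etv4 were at the floor in both groups at PN56, which leaves no PN56 effect to measure there. The other probe set of Etv4 averaged 3.91 in Klf5CN and 3.75 in WT corneas at PN56. Its difference between ages was 0.78 (adjusted p = 0.61). Vgll3, a cofactor of TEAD transcription factors, was the gene called in opposite directions at the 2 ages among those higher at PN11. It had 8.52, 8.41 and 9.04 in Klf5CN corneas, against 7.32, 7.55 and 7.57 in WT corneas at PN11 (2.26-fold, adjusted p = 0.017), and means of 5.89 in Klf5CN and 7.81 in WT corneas at PN56 (difference between ages -3.09, adjusted p = 0.00092). Its PN11 call was lost without Klf5CN replicate 3, WT replicate 1 or WT replicate 3 (adjusted p = 0.051 to 0.085). Cd40 was the gene lower at PN11 that was called higher at PN56. It had 5.70, 5.79 and 6.18 in Klf5CN corneas, against 6.80, 7.32 and 7.30 in WT corneas at PN11 (fell 2.37-fold, adjusted p = 0.021). Its PN56 means were 5.44 in Klf5CN and 4.26 in WT corneas (difference between ages 2.42, adjusted p = 0.015). The PN11 call of Cd40 was lost without Klf5CN replicate 1 or 2 or WT replicate 2 or 3.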

How the results depend on the processing

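Across 23 alternative settings 127 named genes changed at PN11, Cd40 not among them, were followed. None turned its direction, and the second and the third Klf5 probe sets kept their calls wherever they were fitted. The 519 higher genes became 343 with signals under 32 set to 32, 809 with array quality weights and 279 to 518 with 1 array left out, and the 202 lower genes became 475 with no minimum fold and 114 to 212 with 1 array left out. The 77 genes whose effect differed between ages became 210 with the higher floor, 608 with quality weights, 120 with the Actb ratio as covariate and 23 to 59 with 1 array left out. With the replicate number as a block the 3 counts were 337, 152 and 27. Whether mice of the same number came from 1 litter was not stated. Deviations of same-numbered PN11 arrays correlated at 0.05, -0.06 and 0.05, which cannot decide it, since a shared litter need not move most genes. The share of rises among all calls, 72%, was 59.2% with no minimum fold and 62.6% without Klf5CN replicate 2, and subtracting array medians, which moved the median of all genes by -0.10, left 64.4%. The study's fold minimum, its Present calls in the high group and arrays without overlap gave 664 higher and 216 lower genes. The study's criterion on pairwise comparisons was not applied. A covariate for the Gapdh 3′/5′ ratio, chosen after seeing the data, gave 503 and 187, of which 423 and 147 were genes called without it.

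Signs turned for 7 named genes that were not called, under at least 1 setting each. With array medians subtracted, Krt12 was at -0.05 and Aldh3a1 at -0.02. With quality weights Krt12 was at -0.03, Crygs at -0.58 and Pecam1 at 0.70. With the Actb covariate Krt12 was at -0.21, Aldh3a1 at -0.15, Col8a2 at -0.08, Crygs at -1.21 and Pecam1 at 0.87, and with the Gapdh covariate they were at -0.05 (Krt12), -0.01 (Aldh3a1), -1.13 (Crygs) and 1.03 (Pecam1). Pecam1 was at 0.22 with the higher floor. Dcn was at 0.53 by its probe set of smallest p and 0.26 by the mean of its probe sets. With 1 array left out the values ran from -0.93 to 1.41 for Crygs, -0.05 to 0.05 for Dcn, -0.02 to 0.17 for Krt12, -0.22 to 0.84 for Nfkb2 and -0.98 to 0.91 for Pecam1. The cause was not tested. Signals under 10 (30.2% of PN11 values) carry no order, and 3 arrays a group limit the precision.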
